A study of Mus musculus with 42 samples.

Results

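The genes described here are 10 components of the endoplasmic reticulum (ER) folding machinery and of the unfolded protein response: Hspa5, Hsp90b1, Calr, Pdia4, Pdia6, Dnajb9, Sdf2l1, Herpud1, Manf and Xbp1. They were chosen by symbol as the best known targets and effectors of that response, and each symbol matched 1 of the 37310 Ensembl identifiers in the count table. All 10 passed the filter on low counts, which left 11624 genes for testing. RNA-seq was performed on mouse bone-marrow-derived macrophages (BMDM), which were grown from marrow in medium conditioned by L929 cells. Cells came from male young adult mice on a C57BL/6 background. KO mice carried Irf5 fl/fl alleles and LysM-Cre, a Cre recombinase placed in the lysozyme gene Lyz2 and active in myeloid cells. They were compared with WT mice, whose alleles were not given in the sources used here. Cells of each genotype were collected as Control at 0 h, or as Control, with palmitate (a saturated fatty acid carried on albumin) or with LPS (bacterial lipopolysaccharide, the ligand of TLR4) at 2 h and 24 h. Each of the 14 groups held 3 libraries, 42 in all.

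The ER is where secreted and membrane proteins are folded, glycosylated and given disulfide bonds. When unfolded protein accumulates there, the sensors IRE1 (Ern1), PERK (Eif2ak3) and ATF6 are released from the chaperone BiP, the product of Hspa5. IRE1 splices the Xbp1 mRNA, PERK slows translation and raises ATF4 and CHOP (Ddit3), and ATF6 is cut to release a transcription factor. Together these factors raise chaperone and degradation genes, and in macrophages the same pathway is known to be engaged by Toll-like receptor signalling and by saturated fatty acids. Xbp1 splicing, PERK phosphorylation and ATF6 cleavage cannot be read from gene counts.

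The best known DNA element of this response is the ER stress response element (ERSE), which has a CCAAT box and a CCACG box with 9 bases of any kind between them. Promoter windows from 250 bases before to 50 bases after each RefSeq start (GRCm38.p6) were searched on both strands, and 9 of the 10 genes had a window. Manf had none. ERSE occurred in 4 of these 9 genes, namely Hspa5, Hsp90b1, Calr and Pdia6, and in 0.119% of the 32851 windows of all genes. ERSE-II, an ATTGG box and a CCACG box with 1 base between them, occurred in Herpud1 and in 0.0365% of all windows. The ERSE sites are shown because that element was matched in 4 genes, and the ERSE-II site because it was the single match, in a gene called with LPS at both times. The genes were chosen as known targets of the response, so these matches are a description and not a test. Each is printed as 30 bases, 5′ to 3′, in the orientation of the element, with the boxes in capitals.

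Hspa5 (chr2:34772020-34772049, plus strand): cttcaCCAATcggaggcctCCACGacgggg
Hsp90b1, distal (chr10:86705632-86705661, minus strand): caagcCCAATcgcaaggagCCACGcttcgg
Hsp90b1, proximal (chr10:86705528-86705557, plus strand): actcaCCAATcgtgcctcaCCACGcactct
Calr (chr8:84847070-84847099, plus strand): atgggCCAATgagggtcgaCCACGcgttgt
Pdia6 (chr12:17266486-17266515, plus strand): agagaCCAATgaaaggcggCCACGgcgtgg
Herpud1 (chr8:94386368-94386397, plus strand): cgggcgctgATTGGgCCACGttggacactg

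The element began 65 bases before the start of Hspa5, 98 before that of Pdia6 and 162 before that of Calr, where it lay on the strand opposite to the gene. Hsp90b1 held an ERSE on its own strand 212 bases before the start, and another on the opposite strand 107 bases before it. The Hspa5 element lay within the first exon of a GENCODE transcript that starts further upstream, and the other 5 elements touched no annotated exon of their gene. The ERSE-II of Herpud1 began 52 bases before the start, within this stretch of 150 bases (chr8:94386279-94386428, plus strand), which ends at the base before the start and has the element in capitals.

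Herpud1: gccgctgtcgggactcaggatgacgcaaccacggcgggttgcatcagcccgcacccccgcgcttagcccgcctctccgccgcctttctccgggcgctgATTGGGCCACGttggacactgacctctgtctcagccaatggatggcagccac

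The core of the UPR element, TGACGTG, was found in the window of Hspa5 and in 2.01% of all windows. The CCACG box alone, which is also a part of both other elements, was found in 8 of the 9 genes and in 32.8% of all windows. No motif searched was found in the window of Xbp1. These matches describe letters in a window and were not tested as binding sites. All 250 bases before the start of Dnajb9 lay in an annotated exon, so its window did not reach beyond the annotated gene. The Pdia4 window lay wholly outside the annotated gene. In Herpud1 and Xbp1 the bases after the start were not all within an annotated transcript. A missing match in these windows thus does not show that the promoter lacks the element.

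**Figure D1:**
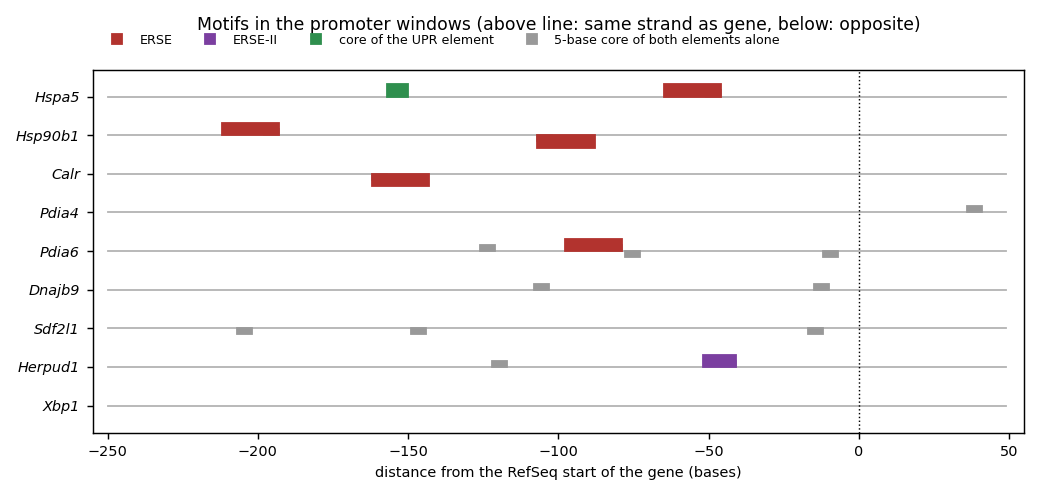
Position of each motif match (x axis, bases from the RefSeq start of the gene) in the promoter windows of the 9 genes that had one (y axis), above the line for the strand of the gene and below it for the opposite strand. ERSE was matched in Hspa5, Hsp90b1, Calr and Pdia6, ERSE-II in Herpud1, and Xbp1 held no match.

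The level of a gene is given throughout as CPM, its count scaled to the size of the library, with library sizes adjusted by the trimmed mean of M-values (TMM). Library totals ranged from 2848793 to 7743442 counts, at which 3 counts correspond to 0.387 to 1.05 CPM (counting error only), and the lowest count of any of the 10 genes in any library was 45, for Dnajb9. All 8 macrophage markers listed, among them Csf1r and Adgre1, were present in every library, with a summed level of 9800 to 23595 CPM. Irf5 was not lower in libraries labelled KO in any condition. It measured 210 to 230 CPM in WT and 279 to 328 CPM in KO at Control 0 h. Whole-gene counts do not show whether an exon was deleted, so the genotype is used here as labelled. Lyz2, in which Cre is inserted, measured 4682 to 6160 CPM in the KO groups other than Control 0 h and 8025 to 14587 CPM in all WT libraries, but 7365, 5377 and 8766 CPM in the 3 KO Control 0 h libraries. Libraries 1 and 3 were thus above all other KO libraries in Lyz2, and library 3 was within the WT range. The summed level of the genes of osmolyte transport and of the response to high salt was 2355, 1903 and 2477 CPM in the 3 KO Control 0 h libraries and 1649 to 1796 CPM in the other 15 Control libraries. Libraries 1 and 3 of KO Control 0 h were the farthest from the other Controls in that sum and from the other KO libraries in Lyz2, and tests of the 10 genes with that group are also given with library 2 alone. The numbers 1 to 3 follow the order of columns and pair nothing. The labels do not say whether the 3 libraries of a group came from separate animals or cultures, so p-values measure the spread between these libraries, which may be technical.

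Compared per kilobase of exon, Calr was the most abundant of the 10 in WT Control 2 h at 298 ± 18.6 CPM per kb (SD, n = 3). Calr encodes calreticulin, the soluble lectin chaperone that binds calcium and nascent glycoproteins. Hspa5, the ATPase chaperone BiP, followed at 117 ± 4.38 CPM per kb, and Hsp90b1, the ER form of HSP90 that folds Toll-like receptors and integrins, measured 111 ± 4.33 CPM per kb. The difference between these 2 genes was smaller than the sum of their SDs. Pdia4 and Pdia6, both disulfide isomerases, measured 54.3 ± 1.87 and 31.2 ± 1.78 CPM per kb. Xbp1, the transcription factor, and Sdf2l1, a subunit of BiP-containing chaperone complexes, measured 26.6 ± 2.90 and 25.5 ± 0.923 CPM per kb, a difference smaller than the SD of Xbp1. Manf, a secreted ER-resident protective factor, Herpud1, a membrane component of ER-associated degradation, and Dnajb9, the BiP co-chaperone ERdj4, were the least abundant at 11.8 ± 0.231, 10.2 ± 2.21 and 9.12 ± 0.542 CPM per kb. The SD of Herpud1 covered both of its neighbours in this order. Exon lengths were taken as the union of GENCODE exons, so the scale between genes is approximate. The Manf locus (GRCm38 chromosome 9, 106838312 to 106891979, minus strand) overlaps Dcaf1 and Rbm15b, with overlapping genes of up to 17.5 CPM on average, and its counts are uncertain because the strand setting of the counting was not given. Genes overlapping Hsp90b1, Pdia4, Pdia6, Dnajb9 or Herpud1 reached at most 0.195 CPM on average, and Hspa5, Calr, Sdf2l1 and Xbp1 overlapped none.

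**Figure D2:**
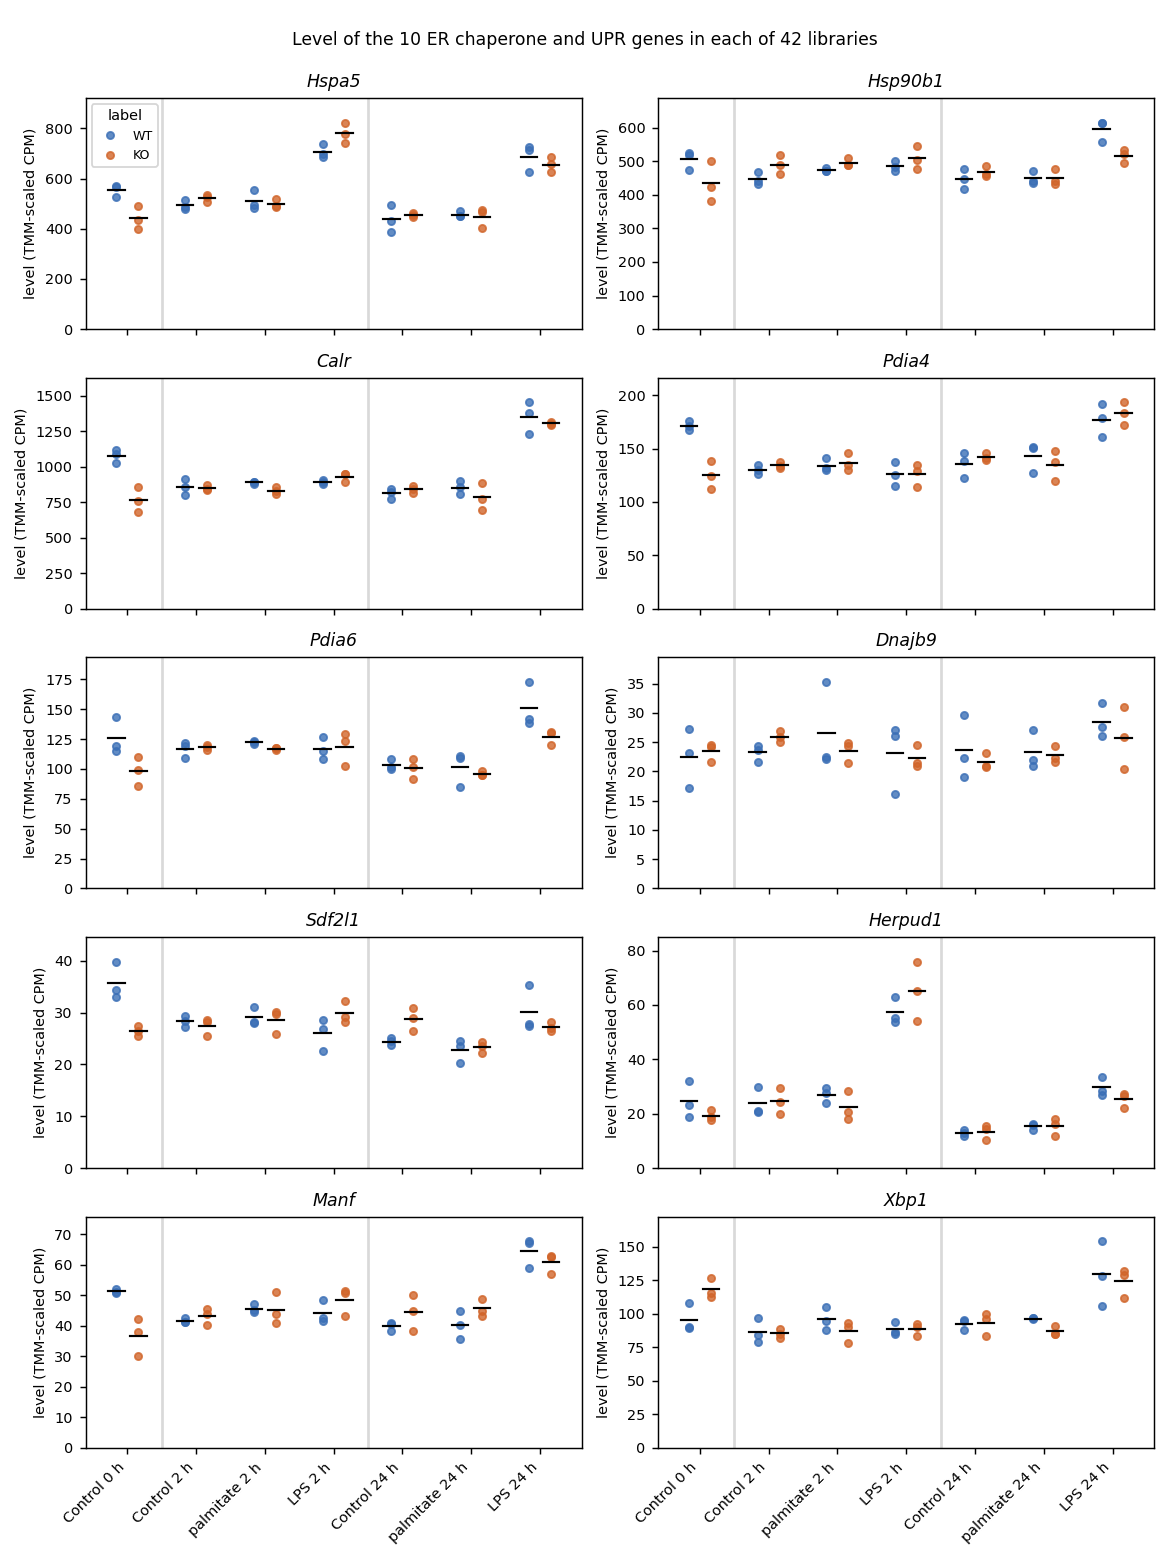
Level of each gene (y axis, TMM-scaled CPM, starting at 0) in each library by condition (x axis), blue for WT and orange for KO, with the mean of the 3 libraries as a black bar. Herpud1 and Hspa5 stood high at LPS 2 h, most of the others at LPS 24 h, and palmitate groups lay beside their Controls.

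The first question was how LPS moved these genes. As a check of the treatment, the cytokine gene Tnf measured 69.3 to 76.6 CPM in WT Control 2 h and 1917 to 2023 CPM with LPS. At 2 h Hspa5 and Herpud1 rose in both genotypes, while the folding enzymes, the lectin chaperone and Xbp1 did not pass the test. Herpud1 measured 21.1, 29.8 and 20.6 CPM in WT Control and 53.7, 62.9 and 55.3 CPM with LPS. In KO it measured 29.5, 19.9 and 24.3 CPM in Control and 75.9, 65.2 and 54.1 CPM with LPS. The groups did not overlap in either genotype, and the lowest LPS library was well above the highest Control. The log2 fold change of Herpud1 was 1.27 ± 0.17 (SE) in WT, with an edgeR adjusted p of 1.95e-08, and 1.39 ± 0.17 in KO, with an adjusted p of 1.59e-09.

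Hspa5 measured 478, 489 and 514 CPM in WT Control 2 h and 699, 736 and 686 CPM with LPS. In KO the 3 Control libraries held 533, 527 and 508 CPM and the LPS libraries 823, 741 and 776 CPM. Again no LPS library reached down to a Control library. The log2 fold change was 0.52 ± 0.07 in WT (edgeR adjusted p 6.28e-08) and 0.58 ± 0.07 in KO (adjusted p 3.78e-09). Among the other 8 genes the log2 fold changes ran from -0.13 for Sdf2l1 to 0.12 for Hsp90b1 in WT, and from -0.21 for Dnajb9 to 0.18 for Manf in KO. The 2 genes called of 10 compare with 23.1% of all genes called at LPS 2 h in WT, 14% higher, and 23.9% in KO, 14.7% higher. The median log2 fold change of the 10 genes was 0.05 in WT and 0.09 in KO, and that of all genes tested -0.01 in both.

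At LPS 24 h the response had widened. In WT 9 of the 10 genes rose, all but Dnajb9, and in KO 7 rose, without Dnajb9, Hsp90b1 and Sdf2l1. Over all genes 39.5% were called in WT, 19.6% higher, and 40.9% in KO, 19.9% higher. The median log2 fold change of the 10 was 0.52 in WT and 0.39 in KO, beside -0.01 over all genes tested in each.

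Among the chaperones, Calr changed most in log2 terms at 24 h. It measured 824, 775 and 843 CPM in WT Control and 1229, 1454 and 1379 CPM with LPS. In KO it went from 862, 816 and 845 CPM to 1318, 1293 and 1305 CPM. All LPS libraries were above all Controls, and the log2 fold change was 0.73 ± 0.07 in WT (edgeR adjusted p 3.20e-13) and 0.64 ± 0.07 in KO (2.48e-11). Hspa5, which had already risen at 2 h, measured 433, 387 and 493 CPM in WT Control 24 h and 625, 725 and 713 CPM with LPS. Its KO Control held 446, 453 and 462 CPM and its KO LPS libraries 658, 625 and 685 CPM. The groups were apart in both genotypes, with log2 fold changes of 0.65 ± 0.07 and 0.53 ± 0.07.

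Hsp90b1 measured 447, 417 and 479 CPM in WT Control 24 h and 557, 613 and 615 CPM with LPS, a log2 fold change of 0.41 ± 0.07 (edgeR adjusted p 1.18e-06). In KO it measured 456, 462 and 485 CPM and 521, 496 and 534 CPM. The KO groups did not overlap either, but the log2 fold change was 0.14 ± 0.07 with an adjusted p of 0.0809. The isomerase Pdia4 rose by a log2 fold change of 0.39 ± 0.08 in WT and 0.36 ± 0.08 in KO. Pdia6 rose by 0.55 ± 0.09 on the log2 scale in WT and by 0.35 ± 0.09 in KO, with libraries of 138 to 173 and 120 to 131 CPM against Controls of 100 to 108 and 91.5 to 108 CPM. For both isomerases all LPS libraries were above all Controls of their genotype.

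The co-chaperone Dnajb9 was not called. It ranged from 19.1 to 29.7 CPM in WT Control and from 26 to 31.7 CPM with LPS, and the groups overlapped, with a log2 fold change of 0.25 ± 0.17 (edgeR adjusted p 0.251). In KO its value was 0.26 ± 0.17. Sdf2l1 measured 24.4, 25 and 23.7 CPM in WT Control and 27.7, 27.5 and 35.4 CPM with LPS, a log2 fold change of 0.31 ± 0.11 (adjusted p 0.0266). Its highest value came from LPS library 3, and the call was lost without that library (log2 fold change 0.18) or without WT Control 24 h library 1 or 3. It was also lost with all genes that had a count in the fit and with only the libraries compared. Over these 5 settings the adjusted p ran from 0.0510 to 0.277. In KO the 2 groups of Sdf2l1 overlapped at -0.07 ± 0.11.

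Herpud1 stayed raised at 24 h, from 14, 11.7 and 13 CPM to 27, 28.5 and 33.5 CPM in WT and from 14.4, 15.3 and 10.2 CPM to 22.1, 26.3 and 27.4 CPM in KO. The log2 fold change was 1.22 ± 0.19 in WT and 0.95 ± 0.19 in KO, the largest of the 10 genes in both, and the groups did not overlap. Its levels in both Control 24 h and LPS 24 h were below those of the same treatment at 2 h. Manf measured 41, 40.6 and 38.3 CPM in WT Control 24 h and 67.1, 58.9 and 67.7 CPM with LPS, a log2 fold change of 0.70 ± 0.10, and 0.47 ± 0.10 in KO. Xbp1 measured 95.2, 94.1 and 88.0 CPM in WT Control and 106, 154 and 128 CPM with LPS, a log2 fold change of 0.49 ± 0.10, and 0.42 ± 0.09 in KO. The 3 WT LPS libraries were spread widely for Xbp1 but all lay above the Controls.

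The share of counts from mitochondrially encoded genes was 5.55% to 6.79% in LPS 24 h libraries and 8.19% to 8.83% in Control 24 h, and the sum of the 12 granulocyte precursor markers was 425 to 615 CPM in WT LPS 24 h against 150 to 156 CPM in WT Control 24 h. In KO that sum was 401 to 489 CPM against 236 to 321 CPM. Of these 12 markers Lcn2 reached the highest level, 421 CPM in a library. Ly6g was at 0 in 40, Ctsg in 24 and Elane in 22 of the 42 libraries, so the sum does not by itself show a change in cell type. The part of these measures in the differences was not tested. In bulk RNA fewer cells of a type and less RNA per cell cannot be told apart. Counts of collagen genes stood out in all KO Control libraries and in some libraries of other groups. The sum of 7 fibroblast markers was 2.81, 4.29 and 46.5 CPM in WT Control 24 h and 1.03 to 4.80 CPM in WT LPS 24 h, but 41.8 to 137 CPM in KO Control 24 h and 1.68 to 177 CPM in KO LPS 24 h. That signal came mainly from Col1a1, Col1a2 and Col3a1, while Lum was at 0 in 41 and Dcn in 36 of the 42 libraries. Without the 4 WT libraries above 10 CPM of this sum, a setting chosen after the data had been seen, 2 genes were called at LPS 2 h and 8 at LPS 24 h in WT, Sdf2l1 being lost (log2 fold change 0.29), with 19.7% and 33.9% of all genes called. That setting called 0 of the 10 with palmitate, with 2 at an unadjusted p under 0.05 at 2 h and 1 at 24 h, and 0.0516% and 0.37% of all genes called. No such fit was possible in KO, where all 3 Control libraries were above that limit at each time. In KO with palmitate the sum was 1.87 to 314 CPM at 2 h and 1.16 to 8.04 CPM at 24 h. Its part in the KO comparisons was not tested.

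**Figure D3:**
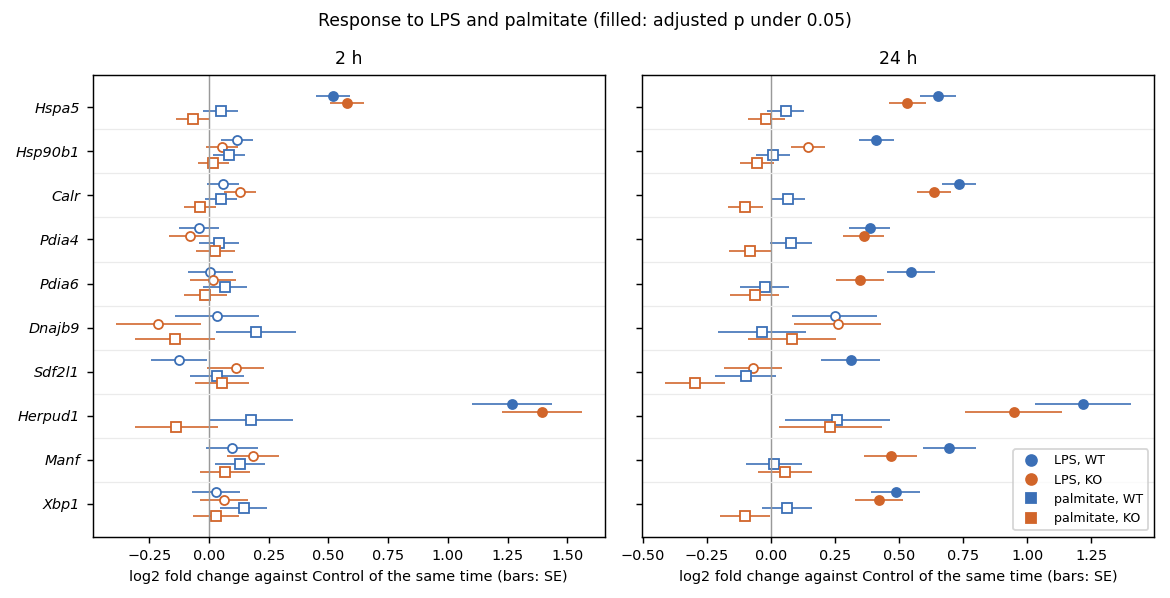
Log2 fold change against Control of the same time and genotype (x axis, bars show 1 SE) for each gene (y axis) at 2 h and 24 h, circles for LPS and squares for palmitate, filled where the edgeR adjusted p was under 0.05. Filled symbols are Hspa5 and Herpud1 at 2 h, and 9 genes in WT and 7 in KO at 24 h, all with LPS.

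The change of the LPS effect between 2 h and 24 h was tested over both genotypes. It was larger at 24 h for 6 genes, at a background of 46.3% of all genes called and 21.7% higher. The difference in log2 fold change was 0.59 ± 0.07 for Calr, 0.44 ± 0.08 for Pdia4, 0.44 ± 0.09 for Pdia6 and 0.44 ± 0.11 for Manf. Xbp1 followed at 0.41 ± 0.10 and Hsp90b1 at 0.19 ± 0.07. Hspa5 (0.04 ± 0.07) and Herpud1 (-0.25 ± 0.18), the 2 genes raised at 2 h, were not called, so their LPS effects were not shown to differ between the times. Of the 5 genes with an ERSE or ERSE-II in the window, Hspa5 and Herpud1 were called higher at 2 h and Hsp90b1, Calr and Pdia6 were not called. All LPS libraries at 2 h still lay above all Controls for Hsp90b1 in WT (0.12 ± 0.07) and for Calr in KO (0.13 ± 0.07). In the other genotype these 2 genes overlapped, and Pdia6 overlapped in both.

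Palmitate was the other stimulus. None of the 10 genes was called by edgeR at 2 h or 24 h in either genotype. At an unadjusted p under 0.05 the count was 0 in WT at both times, 0 in KO at 2 h and 1 in KO at 24 h, and DESeq2 also called 0 in each of the 4 comparisons. The background was low as well, with 0.275% of all genes called at 2 h and 0.852% at 24 h in WT, and 0.112% and 0.877% in KO. As a check of the treatment, Plin2, the coat protein of lipid droplets, measured 202 to 216 CPM in WT Control 24 h and 815 to 861 CPM with palmitate.

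Hspa5 measured 470, 449 and 449 CPM in WT with palmitate for 24 h, inside the Control range of 387 to 493 CPM, a log2 fold change of 0.06 with a 95% interval from -0.09 to 0.20. Calr gave 0.07 with an interval from -0.07 to 0.20, and Hsp90b1 0.01 with an interval from -0.13 to 0.14. These intervals leave out the changes LPS gave for the same genes in WT at 24 h. Those of Hsp90b1 and Calr include the log2 fold changes with LPS in WT at 2 h, 0.12 and 0.06. Herpud1 measured 15.9, 16.1 and 13.9 CPM, and its interval was wider, from -0.15 to 0.67. The gene at an unadjusted p of 0.0140 was Sdf2l1 in KO at 24 h, with 24.3, 23.5 and 22.1 CPM against 30.8, 29 and 26.5 CPM, a log2 fold change of -0.30 ± 0.12 and an adjusted p of 0.385. In the difference between the palmitate effects at 24 h and 2 h, edgeR and DESeq2 called 0 of the 10, with 1 at an unadjusted p under 0.05 and a background of 1.28%.

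The stimuli were also set against each other over both genotypes. At 2 h LPS exceeded palmitate for Herpud1 by 1.31 ± 0.12 and for Hspa5 by 0.56 ± 0.05 on the log2 scale, the 2 genes called, with 35% of all genes called and 19.2% higher. At 24 h LPS exceeded palmitate for 9 genes, from 0.30 ± 0.05 for Hsp90b1 and 0.32 ± 0.08 for Sdf2l1 up to 0.70 ± 0.05 for Calr and 0.84 ± 0.13 for Herpud1. Over all genes 51.8% were called in that comparison and 25.4% were higher. Dnajb9 was again the exception, at 0.23 ± 0.12 and an edgeR adjusted p of 0.0973.

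The question posed by the genotype was whether libraries labelled KO responded differently. For LPS no gene of the 10 was called by edgeR in the difference between the KO and the WT effect at 2 h, where 0 of all genes were called (0.0%), or at 24 h, where 0.0086% were. The count at an unadjusted p under 0.05 was 0 at 2 h and 2 at 24 h, and DESeq2 called 0 at both. The 2 were Hsp90b1, at -0.27 with a 95% interval from -0.46 to -0.08, and Sdf2l1, at -0.38 with an interval from -0.70 to -0.05, and their adjusted p was 0.924 each. For Hspa5 the difference at 24 h was -0.12 with an interval from -0.32 to 0.08. For palmitate the same test called 0 of the 10 and 0.0% of all genes at both times, with 0 at an unadjusted p under 0.05 and 0 by DESeq2.

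Compared directly between KO and WT libraries, 0 of the 10 genes were called by edgeR or DESeq2 in 6 of the 7 conditions. The background was 0.490% of all genes at Control 2 h, 0.146% at palmitate 2 h, 0.465% at LPS 2 h, 0.120% at Control 24 h, 0.0688% at palmitate 24 h and 0.146% at LPS 24 h. An unadjusted p under 0.05 occurred 2 times in these 6 conditions, both at LPS 24 h. At LPS 2 h Hspa5 was higher in all 3 KO libraries than in WT, with a log2 fold change of 0.14 ± 0.07 and an edgeR adjusted p of 0.444. At Control 24 h Sdf2l1 was also higher in all 3 KO libraries, with a log2 fold change of 0.23 ± 0.12 and a 95% interval from -0.0066 to 0.46. At LPS 24 h Hsp90b1 measured 557, 613 and 615 CPM in WT and 521, 496 and 534 CPM in KO, a log2 fold change of -0.20 ± 0.07 with an adjusted p of 0.257. Pdia6 gave -0.25 ± 0.09, with 142, 138 and 173 CPM in WT and 131, 120 and 130 CPM in KO. The genotypes were also apart for Dnajb9 at Control 2 h (0.16) and for Xbp1 at palmitate 24 h (-0.15). At palmitate 2 h they were apart for Hsp90b1 (0.06), Calr (-0.10) and Pdia6 (-0.07). An exact permutation test of 3 against 3 gives no p below 0.1, so groups being apart does not by itself show a difference. The share of all genes with groups apart was not counted.

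Calls were made at Control 0 h. With all libraries 7 of the 10 genes were lower in KO and Xbp1 was higher, at a background of 12.5% of all genes called, 6.06% lower and 6.40% higher. KO was also represented by library 2 alone, the one nearest to the other KO libraries in Lyz2 and to the other Controls in osmolyte genes. Its osmolyte sum of 1903 CPM was still above the other Controls, which reached 1796 CPM. The log2 fold changes of these 8 genes were then all smaller in size, as given below. In that fit, added after the data had been seen, the lone library is assumed to vary like the other groups. Library 2 was nearer to WT than the mean of all 3 in each of the 8 genes, and the SE of a single library was larger, 0.09 against 0.07 for Calr.

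Calr measured 1118, 1027 and 1090 CPM in WT Control 0 h and 758, 858 and 678 CPM in KO. The groups were apart, with library 2 of KO the nearest to WT, and the log2 fold change was -0.50 ± 0.07 (edgeR adjusted p 7.86e-07) with all libraries and -0.33 (adjusted p 0.0662) with library 2 alone. Pdia4 measured 171, 167 and 176 CPM in WT and 125, 139 and 112 CPM in KO, a log2 fold change of -0.45 ± 0.08 that became -0.31 with library 2 alone. Hspa5 measured 571, 526 and 566 CPM in WT and 435, 491 and 399 CPM in KO, giving -0.33 ± 0.07 with all and -0.17 with library 2 alone. In each of these genes KO library 3, the one highest in osmolyte genes, was the lowest of the 6.

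Manf measured 51.9, 51.2 and 50.7 CPM in WT and 37.9, 42.3 and 30.05 CPM in KO (log2 fold change -0.48 ± 0.11, and -0.28 with library 2 alone). Sdf2l1 measured 32.9, 34.3 and 39.8 CPM in WT and 26.5, 27.4 and 25.5 CPM in KO (-0.43 ± 0.11, and -0.39 with library 2 alone). Neither gene overlapped between the groups. Pdia6 was lower by -0.36 ± 0.09, and Hsp90b1 by -0.22 ± 0.07 with overlapping groups. Library 2 alone gave -0.20 for Pdia6 and -0.01 for Hsp90b1. Xbp1 went the other way, from 89.2, 89.7 and 108 CPM in WT to 113, 115 and 126 CPM in KO, a log2 fold change of 0.30 ± 0.09 that was 0.26 with library 2 alone. Herpud1 (-0.34 ± 0.18) and Dnajb9 (0.05 ± 0.17) were not called. Leaving out 1 library at a time also lost some calls. Hsp90b1 was lost without WT or KO library 1 or 3 (-0.13 to -0.20), Pdia6 without WT or KO library 3 (-0.25 and -0.27), Sdf2l1 without WT library 3 (-0.34) and Xbp1 without WT library 1 or 2 or KO library 3 (0.25 to 0.26).

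The other measures that moved with this comparison were the share of mitochondrially encoded counts, 10.2% to 10.3% in WT and 8.18% to 8.84% in KO, and the fibroblast sum, 0.905 to 1.42 CPM in WT and 43.1 to 70.7 CPM in KO. The granulocyte precursor markers summed to 104 to 119 CPM in WT and 139 to 153 CPM in KO. Their part in the result was not tested.

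**Figure D4:**
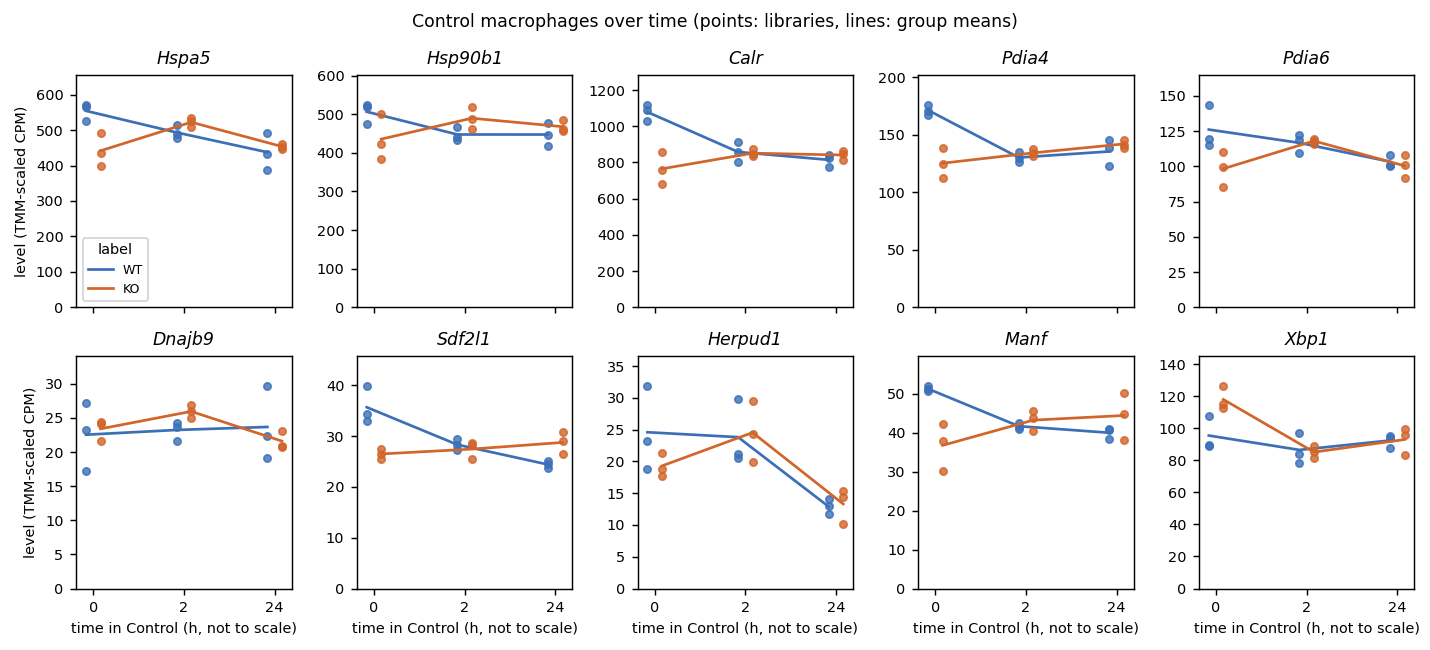
Level of each gene (y axis, TMM-scaled CPM, starting at 0) in Control at 0, 2 and 24 h (x axis, not to scale), with points for libraries and lines through the means, blue for WT and orange for KO. The genotypes were apart at 0 h for Calr, Pdia4, Manf, Sdf2l1, Hspa5 and Pdia6, lower in KO, and for Xbp1, higher in KO. In these genes they overlapped at 2 h, while at 24 h the KO libraries of Sdf2l1 lay above those of WT.

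The genotype difference at 0 h was tested against that at later times. Against Control 2 h it was lower for 5 genes (Calr, Pdia4, Manf, Hspa5 and Hsp90b1, from -0.35 to -0.53), at a background of 4.77% of all genes called and 2.22% lower. Against Control 24 h it was lower for 5 genes (Calr, Pdia4, Manf, Hspa5 and Sdf2l1, from -0.38 to -0.66), with 1.83% called and 0.886% lower. With library 2 as the only KO Control 0 h library edgeR called 0 of the 10 in both, and 3 and 4 genes were at an unadjusted p under 0.05. Over all genes that fit called 0.344% against 2 h and 0.0% against 24 h. Calr was called in all 12 fits without 1 library at either time, and Pdia4 in all 12 against 2 h. Against 2 h the call of Hspa5 was lost without KO Control 0 h library 3 (-0.34), that of Manf in 5 fits and that of Hsp90b1 in 7. Against 24 h the call of Pdia4 was lost without KO Control 0 h library 3 (-0.45) or WT Control 24 h library 2 (-0.43), that of Manf in 4 fits, that of Sdf2l1 in 6 and that of Hspa5 in 9.

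Over time in Control, with both genotypes combined, Xbp1 was lower at 2 h than at 0 h by -0.31 ± 0.07 on the log2 scale (16.7% of all genes called, 7.36% lower). At 24 h 4 genes were lower than at 0 h, with 16.5% of all genes called and 8.62% lower. Herpud1 changed most, at -0.75 ± 0.14, its libraries falling from 17.6 to 31.8 CPM at 0 h to 10.2 to 15.3 CPM at 24 h without overlap. Xbp1 gave -0.20 ± 0.07, Hspa5 -0.15 ± 0.05 and Calr -0.13 ± 0.05. These values average both genotypes. At 24 h Calr gave -0.41 in WT and 0.14 in KO, Hspa5 -0.34 and 0.04, Xbp1 -0.05 and -0.35, and Herpud1 -0.93 and -0.56. Calr, Hspa5 and Herpud1 were not called in KO at 24 h, nor Xbp1 in WT. At 2 h Xbp1 gave -0.14 in WT, without a call, and -0.47 in KO. Of the 12 fits of the combined test at 24 h without 1 library, the call of Hspa5 was lost in 8, that of Calr in 10 and that of Xbp1 in 6. Where a call was lost the values ran from -0.09 to -0.21, and that of Herpud1 was lost in 0 fits. With KO represented by library 2 alone 3 genes were called at 2 h and 3 at 24 h, where the call of Xbp1 was lost, and 11.2% of all genes were called at each time.

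Within a genotype, comparisons added after the 0 h values had been seen, the times differed in WT for 4 genes at 2 h, all lower (Calr -0.33, Pdia4 -0.40, Sdf2l1 -0.34, Manf -0.30), with 14.3% of all genes called and 5.85% lower. At 24 h 7 genes were lower in WT, from -0.29 for Pdia6 to -0.93 for Herpud1, with 12.1% called and 6.42% lower. In KO Hspa5 was higher at 2 h by 0.24 ± 0.07 and Xbp1 lower by -0.47 ± 0.10, with 12.1% of all genes called, 6.5% higher and 5.59% lower. With library 2 alone 1 gene and 4.46% of all genes were called. At 24 h in KO Xbp1 alone was lower (-0.35 ± 0.10, 8.17% called, 4.46% lower), and with library 2 alone at 0 h edgeR called 0 of the 10, with 2 at an unadjusted p under 0.05 and 2.74% of all genes called. In WT the calls of Calr and Pdia4 at 2 h and of Hspa5, Calr, Sdf2l1 and Herpud1 at 24 h were made in all 6 fits without 1 library. Those of Sdf2l1 and Manf at 2 h were lost in 3 and 6 fits, that of Pdia6 at 24 h in 4, that of Pdia4 without WT Control 24 h library 2 (-0.25) and that of Manf without WT Control 24 h library 3 (-0.31). In KO the call of Hspa5 at 2 h was lost in 4 fits, and that of Xbp1 at 24 h without KO Control 0 h library 3 (-0.29) or KO Control 24 h library 2 (-0.28). The WT comparisons do not involve the KO libraries that stood apart, but the mitochondrial share was 10.2% to 10.3% in WT Control 0 h and 8.14% to 9.11% in the later WT Controls, and its part was not tested.

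The wider pathway was described with 9 lists of other genes by role, of which 189 genes were matched and 181 tested. At LPS 24 h 71 of the 181 were higher and 22 lower in WT, and 60 were higher and 29 lower in KO. The higher genes were 39.2% and 33.1% of the list, beside 19.6% and 19.9% of all genes, and the lower genes 12.2% and 16%, beside 19.9% and 21% of all genes. At LPS 2 h 26 were higher and 8 lower in WT, and 30 higher and 13 lower in KO. There 14.4% and 16.6% of the list were higher, beside 14% and 14.7% of all genes, and 4.42% and 7.18% were lower, beside 9.1% and 9.16%. With palmitate the counts called by edgeR were 0 at 2 h in both genotypes, and at 24 h 1 in WT, the cargo receptor Tmed10 at 0.31 ± 0.06, and 0 in KO.

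None of the 3 sensor genes was called higher at LPS 24 h. Ern1, which encodes IRE1, gave -0.0030 ± 0.09 at LPS 24 h in WT and 0.19 ± 0.09 in KO, and was not called. Eif2ak3 was lower at LPS 24 h by -0.46 ± 0.14 in WT and -0.47 ± 0.14 in KO, with 22.2 to 29.1 CPM against 32.6 to 36.9 CPM in WT. Atf6 was lower by -0.34 ± 0.07 and -0.25 ± 0.07. Of the 11 sensors and factors tested, 3 were higher and 5 lower in WT at 24 h (3 and 4 in KO), and the related factors Nfe2l1 (0.65 ± 0.07) and Atf6b (0.60 ± 0.11) were among the higher.

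Of the 9 lists, the PERK, ATF4 and CHOP arm had the largest share of its genes called at both times in both genotypes. At LPS 2 h 6 of its 13 genes were higher and 3 lower in WT, and 7 and 3 in KO. Ppp1r15a, the phosphatase subunit GADD34 that reverses the translation block, measured 26.5 to 36.1 CPM in WT Control 2 h and 430 to 475 CPM with LPS, a log2 fold change of 3.86 ± 0.10. Atf4 rose by 0.64 ± 0.08, whereas Ddit3, which encodes CHOP, was lower by -0.75 ± 0.15 (23.6 to 26.3 CPM against 14 to 15.6 CPM). At LPS 24 h 9 of the 13 were higher in each genotype, with 1 lower in WT and 2 in KO. Atf3, a transcription factor induced in this arm, was lower at -1.04 ± 0.07 in WT and -0.98 ± 0.07 in KO. Atf4 then gave 1.01 ± 0.08 in WT and 1.24 ± 0.08 in KO, and Ddit3 was then higher, at 1.33 ± 0.13 and 1.17 ± 0.13, measuring 52.1 to 63.8 CPM in WT against 21 to 25.4 CPM in Control. Ppp1r15a measured 26.5 to 31.9 CPM in WT LPS 24 h.

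Among other chaperones at LPS 24 h in WT, 8 of 18 were higher and 1 lower, with Hyou1, a large partner of BiP, at 0.72 ± 0.08 and Uggt1, the glycoprotein folding sensor, at -0.34 ± 0.07. Of 21 other redox and prolyl folding enzymes 8 were higher and 2 lower, P4hb and Pdia3 at 0.59 ± 0.06 and 0.50 ± 0.06. In ER degradation 9 of 28 were higher and 5 lower, and Edem1 and Edem3, which trim mannose from misfolded glycoproteins, were lower at -0.49 ± 0.07 and -0.46 ± 0.09. Translocation and signal peptidase had 10 of 25 higher and 1 lower, N-glycosylation 8 of 21 higher and 2 lower, ER to Golgi transport 11 of 30 higher and 2 lower, and ER calcium and membrane genes 5 of 14 higher and 3 lower. In KO 7 genes were higher and 5 lower in translocation and signal peptidase, 5 and 4 in redox and prolyl folding, 7 and 3 in other chaperones and 4 and 4 in calcium and membrane genes. ER degradation in KO had 9 and 4, N-glycosylation 7 and 2, and ER to Golgi transport 9 and 1. Differences between the genotypes in these counts were not tested.

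At Control 0 h 21 of the 181 were lower and 8 higher in libraries labelled KO, among them Canx, the membrane partner of calreticulin, at -0.27 ± 0.05 and the signal peptidase gene Spcs2 at -0.44 ± 0.09. These are 11.6% and 4.42% of the list, beside 6.06% lower and 6.40% higher over all genes. With KO represented by library 2 alone edgeR called 0 of the 181, with 31 at an unadjusted p under 0.05 and 0.473% of all genes called, and Canx and Spcs2 were at -0.21 and -0.46. The collagen chaperone Serpinh1 was at 0 to 0.362 CPM in WT and 6.09 to 8.28 CPM in KO, beside the collagen genes named above. With library 2 alone its log2 fold change was 5.12 without a call, so a lost call in that fit does not show that a difference was absent. In the other 6 conditions 0 of the 181 were called between genotypes, beside 0.0688% to 0.49% of all genes.

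**Figure D5:**
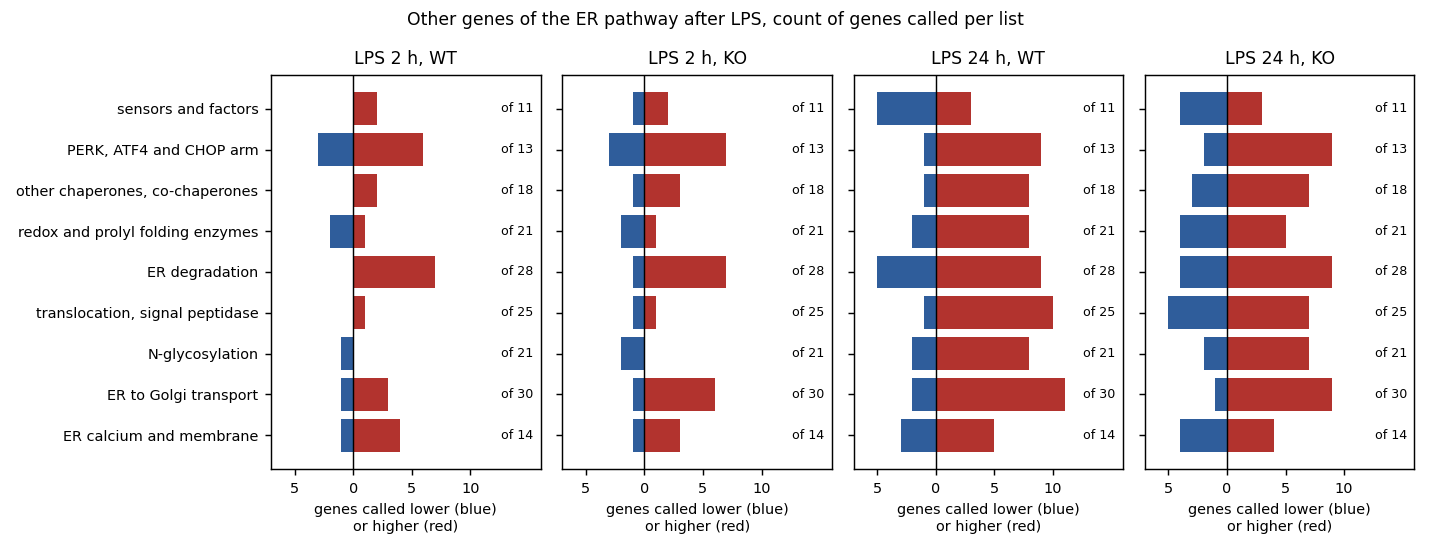
Number of genes called higher (red, to the right) or lower (blue, to the left) by edgeR in each of the 9 lists of other ER genes (y axis) with LPS at 2 h and 24 h in WT and KO, beside the number tested. The PERK, ATF4 and CHOP list was the one with most calls relative to its size at both times.

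The 10 genes were compared with each other as a description. Over the 14 group means, the pairs had a median Pearson r of 0.55, from -0.11 for Pdia4 with Herpud1 to 0.94 for Calr with Manf, and 43 of the 45 pairs were positive. Over the 42 libraries centred on their group means the median r was 0.19, from -0.14 to 0.76, the highest being Hspa5 with Calr. Libraries share depth and composition, and the group means share the LPS effect. The genes most alike to the mean profile of the 10 over the 14 group means were Fcrl5, Vdac2, Cp, Ly86, Erap1, Pik3ap1, Slc13a3, Tspan3, Polb and Sdc3, with r from 0.92 to 0.94, and none of them was in a list of the pathway. With KO Control 0 h represented by library 2 alone the pairs had a median r of 0.56, from -0.15 to 0.94, with 43 positive. These 10 genes then had r from 0.86 to 0.95 with the mean profile, and 5 of them were still among the 10 most alike.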

How the data were processed

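The authors deposited 1 table of raw read counts per gene for all 42 libraries, 37310 Ensembl identifiers in rows. Per the labels and the study's methods, ribosome-depleted total RNA was made into stranded, PCR-amplified libraries without molecular identifiers. Reads were trimmed with fastp 0.19.11 and aligned with STAR 2.7.3a to mm10, and the notes also list mm9. The annotation release and the strand setting of the counting are not given in the sources used here. Column headers name the group but no replicate. Identifiers were named from GENCODE (GRCm38), which matched 32620.

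Counts were filtered with filterByExpr and fitted as 14 group means over all libraries with edgeR 4.0.16 (quasi-likelihood test, TMM), after a check on simulated counts. Genes with a Benjamini-Hochberg adjusted p under 0.05 over the 11624 tested were called. Values after ± are SEs for log2 fold changes and SDs for levels. A fold change is a ratio of CPM on the log2 scale. Groups of 3 give an exact permutation test no p below 0.1, so none was used. Alternatives were RLE size factors, no filter beyond a count above 0, only the libraries compared, DESeq2 1.42.0 and each library left out, and 4 were added after the data had been seen. No pair of replicates agreed within sampling noise (chi-square per degree of freedom 1.93 or more). Named list genes were, per list and comparison, up to 2 called in each direction with the smallest adjusted p, plus the 3 sensors, Atf4 and Ddit3. The 10 genes and the lists were chosen with earlier results of these data known.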

Additional observations from a re-analysis of the deposited data

Results flagged for a closer look

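A test of the difference itself showed that the LPS effect, over both genotypes, was larger at 24 h than at 2 h for 6 genes. The background was 46.3% of all genes called and 21.7% higher. The difference in log2 fold change was 0.59 for Calr, 0.44 for Manf, 0.44 for Pdia4, 0.44 for Pdia6, 0.41 for Xbp1 and 0.19 for Hsp90b1.

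The same kind of test showed that the difference between KO and WT at Control 0 h differed from that at later times. Against Control 2 h it was lower by -0.41 for Hspa5, -0.35 for Hsp90b1, -0.48 for Calr, -0.50 for Pdia4 and -0.53 for Manf. There 4.77% of all genes were called and 2.22% were lower. Against Control 24 h it was lower by -0.38 for Hspa5, -0.54 for Calr, -0.52 for Pdia4, -0.66 for Sdf2l1 and -0.62 for Manf, with 1.83% of all genes called and 0.886% lower. Libraries 1 and 3 of KO Control 0 h were the farthest from the other Controls in osmolyte genes and from the other KO libraries in Lyz2. Library 2, at 1903 CPM in osmolyte genes, was also above the other Controls, which reached 1796 CPM. With library 2 as the only one of that group, the differences were smaller for Calr (-0.32 against 2 h and -0.38 against 24 h) and for Pdia4 (-0.35 against 2 h). The part of those measures in the difference was not tested.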

How the results depend on the processing

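No paired analysis was possible because the columns carry no replicate numbers, so the planned fit with replicate as a block was not run. Of 296 values of called genes under the other settings with all libraries, 290 kept their direction and call, 6 lost the call and 0 reversed. Of 708 values with 1 library left out, 616 kept both, 92 lost the call and 0 reversed. The 10 genes kept a count of 2 calls at LPS 2 h in either genotype in each setting run, and counts of 8 to 9 in WT and 7 to 8 in KO at LPS 24 h, and of 0 with palmitate. The counts that moved most were those involving Control 0 h. Only the libraries compared gave 2 genes for Control 2 h against 0 h over both genotypes in place of 1. The same setting gave 6 in place of 4 for that comparison in WT and 7 in place of 8 for KO against WT at Control 0 h. RLE size factors, all genes with a count, only the libraries compared and DESeq2 each gave 3 in place of 2 for Control 2 h against 0 h in KO. All genes with a count gave 2 in place of 4 for Control 2 h against 0 h in WT, and 2 in place of 1 for Control 24 h against 0 h in KO. KO Control 0 h by library 2 alone gave 0 in place of 8 for KO against WT, 3 in place of 1 for Control 2 h against 0 h over both genotypes, 0 in place of 5 for each genotype difference between times, 1 in place of 2 for Control 2 h and 0 in place of 1 for Control 24 h against 0 h in KO. Leaving out 1 library gave 5 to 8 genes for KO against WT at Control 0 h, 2 to 6 and 1 to 6 for its difference from 2 h and 24 h, 1 to 2 and 1 to 4 for Control 2 h and 24 h against 0 h over both genotypes, 2 to 4 and 5 to 8 for these in WT, and 1 to 6 and 0 to 4 in KO. The cause of these shifts was not tested. Depth limits Dnajb9, Herpud1 and Sdf2l1 most, with lowest counts of 45, 50 and 75 in a library.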
